A study of Rattus norvegicus with 14 samples.

Results

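The change of the pineal transcriptome across lights on was measured by comparing the pineal gland of rats 1 h after lights on (zeitgeber time 1, ZT1) with that 1 h before lights on (ZT23). The animals were Sprague-Dawley rats of 6-8 weeks, untreated apart from their lighting cycle (14 h light, 10 h dark). Each time was 1 library from the pooled glands of 10 animals, so the comparison gives ratios with no replicate error and no test. Levels are given in FPKM, the number of fragments scaled to transcript length and to the size of the library, with the transcripts of a gene added up. Genes of at least 5 FPKM in either pool were kept, which gave 6111 of the 16472 genes in the table: 5583 reached 5 FPKM in both pools, 196 at ZT23 alone and 332 at ZT1 alone. The other pineal pools, taken at ZT7, ZT13, ZT15 and ZT19, served to place the change within the day, and retinas of the same times, also 1 pool of 10 animals each, served for comparison. The ZT23 glands had 1 more hour of darkness ahead and the ZT1 glands had 1 h of light behind them, so changes in that last hour of darkness and in the first hour of light cannot be told apart.

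The pineal gland makes melatonin at night. Sympathetic nerves release noradrenaline in the dark, which acts on beta- and alpha-1-adrenergic receptors, raises cAMP and, through protein kinase A and the transcription factor CREB, switches on Aanat, the gene of the enzyme that sets the rhythm of melatonin synthesis. CREB binds the cAMP response element (CRE). Light stops the nerve signal, after which each transcript declines at a pace set by how long its synthesis goes on and how fast it is degraded.

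The FPKM of the ZT23 and ZT1 libraries summed to 176934 and 179216, and the worth of 1 fragment per kilobase, estimated from 24 and 34 olfactory receptor transcripts above 0, was 0.0475 and 0.0368 FPKM. A value of 5 FPKM thus stood for roughly 105 and 136 fragments per kilobase, and values near 1 FPKM carry a large counting error. The 10 pinealocyte markers were all above 5 FPKM in both pools and summed to 5659 FPKM at ZT23 and 5942 FPKM at ZT1, and the defining markers of the labelled tissue were thus present. Summed levels of the other marker lists at ZT23 and ZT1 were 62.6 and 69.1 FPKM for microglia, 32.8 and 36.2 for endothelium, 241.9 and 252.5 for meninges, 1611 and 1619 for blood, 39.6 and 41.8 for oligodendrocytes, 160.6 and 184.8 for astrocytes and 1058 and 1252 for brain neurons. The choroid plexus list went from 824 to 1348 FPKM, of which Ttr made up 664 and 1152 FPKM and the other markers 160.7 and 196.8. All 4 of its genes of at least 5 FPKM in either pool (Ttr, Otx2, Kcne2 and Clic6) had the higher value at ZT1, within 2-fold, and its markers Folr1 and Sostdc1 were under 3 FPKM in both pools. The part of such cells in the changes below was not tested. Of all marker genes of at least 5 FPKM, 1 (Isl2, on the pinealocyte list) differed by 2-fold or more.

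Most of the transcriptome was nearly level across lights on. The difference of log2(FPKM + 1), ZT1 minus ZT23, had a median of 0.05 over the 6111 genes, and 93.7% of them lay within 1.5-fold. At least 2-fold lower at ZT1 were 72 genes (1.18% of those compared) and at least 2-fold higher 41 (0.671%). At 4-fold the counts were 13 (0.213%) and 3 (0.0491%). The 1 added to each FPKM makes these folds smaller for weakly expressed genes. In a pooled gland, a lower level can come from fewer cells of a type or from less RNA per cell, which cannot be told apart.

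The retina changed less over the same 2 h. Of 6254 retinal genes of at least 5 FPKM at ZT23 or ZT1, 4 were at least 2-fold lower at ZT1 (0.064%), 5 were at least 2-fold higher (0.0799%), and 98.6% lay within 1.5-fold; at 4-fold there was 1 in each direction (0.016% and 0.016%). No library is shared between both comparisons, and the difference between the tissues was not tested. Among the steps between neighbouring pineal times, the largest counts were in the 4 h from ZT15 to ZT19. There 163 genes were at least 2-fold lower and 207 higher (2.57% and 3.27% of those compared). The 2 h around lights on had 72 lower and 41 higher (1.18% and 0.671%). The 4 h from ZT19 to ZT23 had 54 and 67 (0.905% and 1.12%), and the 6 h from ZT1 to ZT7 had 83 and 38 (1.33% and 0.610%). In the 2 h from ZT13 to ZT15, the step that held lights off, 19 were lower and 19 higher (0.298% each). The 6 h from ZT7 to ZT13 had 13 and 25 (0.206% and 0.396%). Neighbouring steps share a library.

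**Figure D1:**
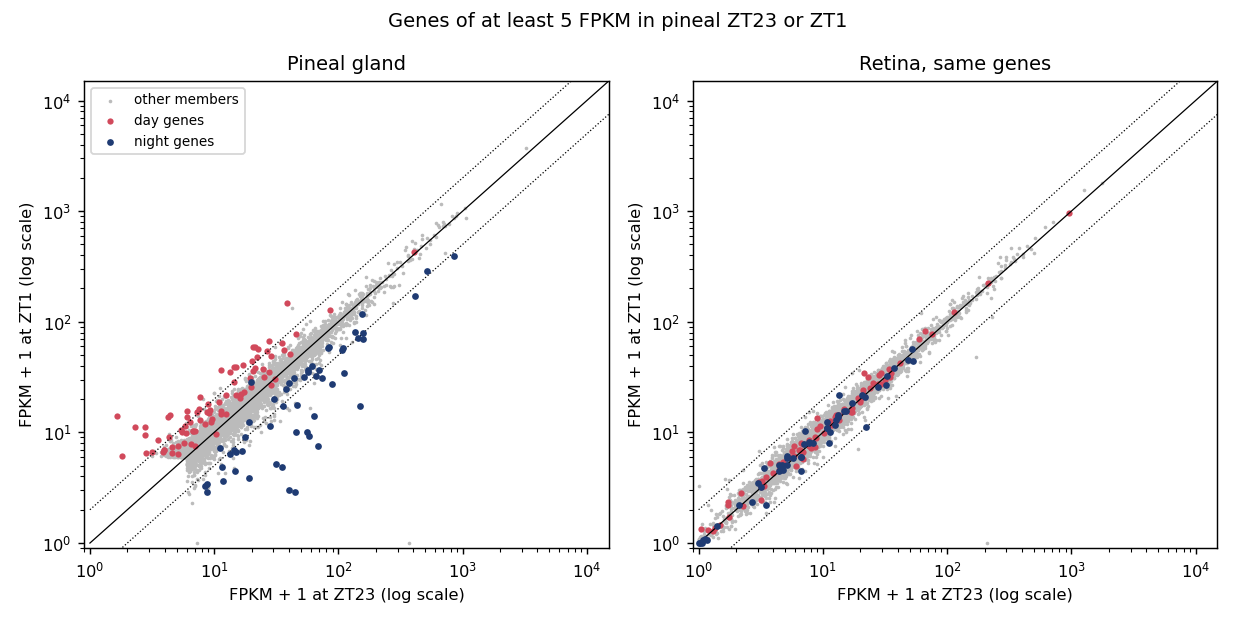
FPKM + 1 at ZT1 against ZT23 on log axes for the 6111 genes, 1 point a gene, in the pineal gland (left) and the retina (right), with the line of equality and dotted lines at 2-fold. Dark blue points are night genes and red points day genes, as defined in the text; in the pineal gland 33 of the 53 night genes lie on or below the lower dotted line, and in the retina none of the night genes of at least 5 FPKM there does.

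Night genes were defined from other pools than the compared ones, as those whose log2(FPKM + 1) at ZT19, in mid-dark, was at least 2 (4-fold) above both ZT7 and ZT13. Among the 5596 genes of at least 5 FPKM at ZT19, a floor that uses neither compared pool, 60 met this, and 33 of these 60 (55%, against 1.22% of the 5596) were at least 2-fold lower at ZT1 than at ZT23. None of the 60 was 2-fold higher, and their median difference was -1.04; this floor was chosen after the data were seen. Among the 6111 genes kept by their level at ZT23 or ZT1, 53 met the rule, and these are described below. At ZT1, 33 of the 53 (62.3%, against 1.18% of all genes compared) were at least 2-fold below ZT23, 11 of them at least 4-fold, and none was 2-fold above. The median difference was -1.11 on the log2 scale, against 0.05 over all genes, with a range from -3.96 to 0.55. The floor favours falls here: 11 of the 53 reached 5 FPKM at ZT23 and not at ZT1, and all 11 were at least 2-fold lower. All but 1 of the 53, Ribc2, had a lower value at ZT1.

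The night genes left the night at very different paces. For the 52 whose ZT23 value was at least 2-fold above the day level, the share of the night level left at ZT1 was taken as the distance of ZT1 from the day level, the mean of ZT7 and ZT13, divided by the distance of ZT23 from it, in FPKM. The median share left was 31.0%. Under 10% was left for 12 genes, 10 to 50% for 28 and over 50% for 12. The plot of these 52 genes orders them by their difference across lights on.

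**Figure D2:**
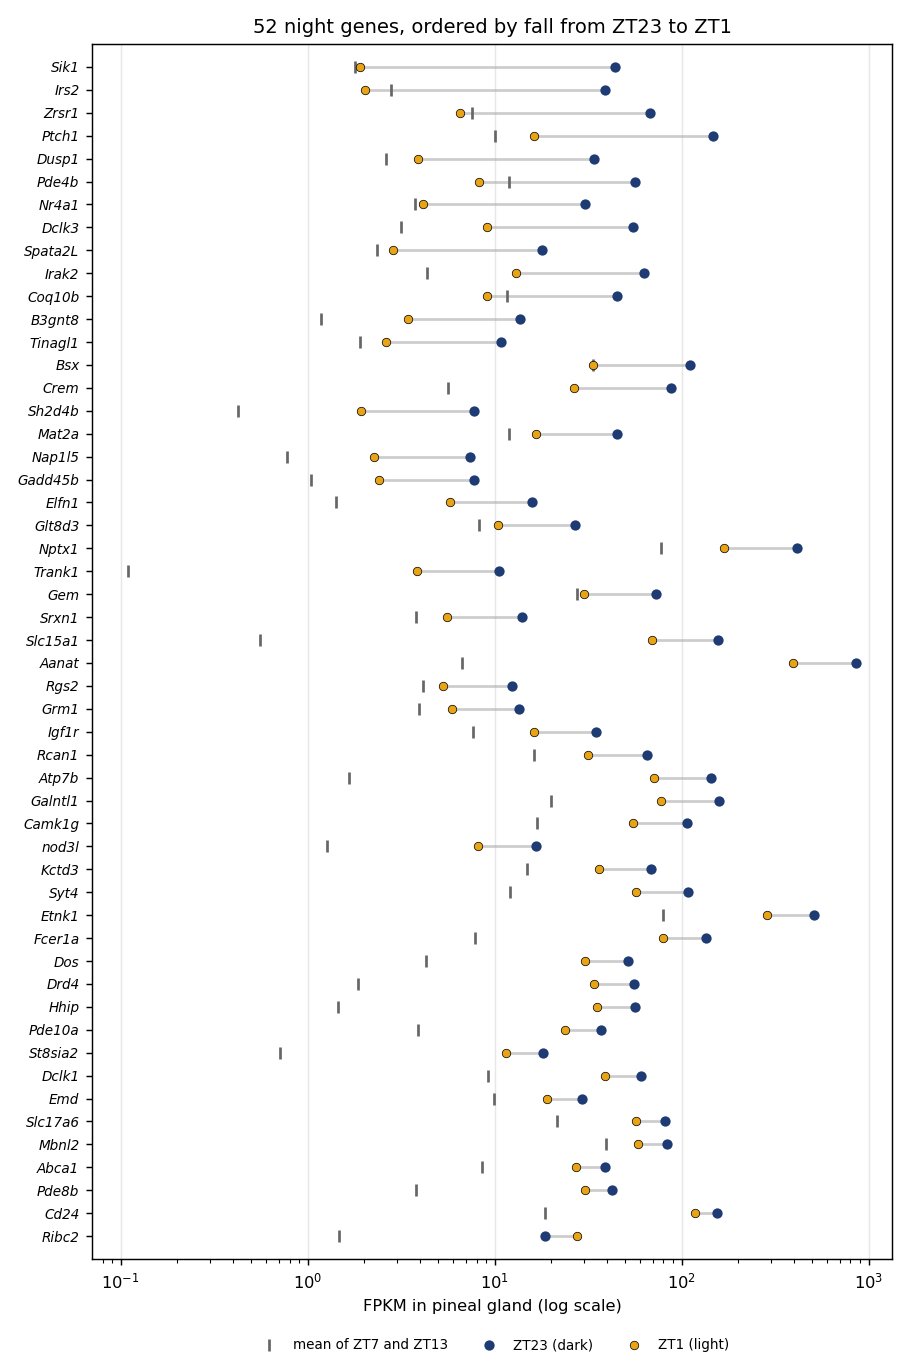
Pineal FPKM of the 52 night genes with a share (log axis) at ZT23 in the dark, at ZT1 in the light and as the mean of ZT7 and ZT13, 1 row a gene and 1 library a point, ordered by the fall from ZT23 to ZT1. In the rows of Sik1, Irs2, Zrsr1 and Nr4a1 the ZT1 point lies close to the day mark, and in those of Dclk3 and Irak2 above it; in the lower rows, such as Hhip and Cd24, it lies near the ZT23 point.

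The sequences before the starts of a few of these genes are shown because CREB is the known link between the nerve signal and night transcription, and the set spans genes that lost nearly all of their night level and genes that kept part of it; it was chosen after the values were seen. They are the 250 bases before the RefSeq start in the GRCr8 assembly, 5′ to 3′ on the gene's strand. Capitals mark every match to the CRE half-site, TGACG or its reverse complement CGTCA; the 2 overlap in the full CRE, TGACGTCA. The windows are at chr20:9958647-9958896 (minus strand) for Sik1, chr10:17184603-17184852 (plus strand) for Dusp1, chr7:134259888-134260137 (plus strand) for Nr4a1, chr9:64047918-64048167 (plus strand) for Coq10b, chr17:1555321-1555570 (plus strand) for Ptch1, chr17:58984547-58984796 (plus strand) for 1 of 3 starts of Crem, chr15:104949345-104949594 (minus strand) for Slc15a1 and chr10:102326073-102326322 (plus strand) for Aanat.
Sik1: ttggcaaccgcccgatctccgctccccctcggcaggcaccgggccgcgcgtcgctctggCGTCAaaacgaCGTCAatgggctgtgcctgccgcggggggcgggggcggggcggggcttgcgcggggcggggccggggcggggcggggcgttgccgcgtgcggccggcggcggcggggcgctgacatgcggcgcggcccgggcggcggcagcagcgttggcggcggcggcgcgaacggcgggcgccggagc
Dusp1: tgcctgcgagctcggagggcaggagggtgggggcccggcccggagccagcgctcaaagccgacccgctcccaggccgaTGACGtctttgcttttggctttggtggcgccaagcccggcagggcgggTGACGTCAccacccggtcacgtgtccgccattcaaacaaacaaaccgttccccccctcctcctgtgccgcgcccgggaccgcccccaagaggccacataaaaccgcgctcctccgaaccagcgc
Nr4a1: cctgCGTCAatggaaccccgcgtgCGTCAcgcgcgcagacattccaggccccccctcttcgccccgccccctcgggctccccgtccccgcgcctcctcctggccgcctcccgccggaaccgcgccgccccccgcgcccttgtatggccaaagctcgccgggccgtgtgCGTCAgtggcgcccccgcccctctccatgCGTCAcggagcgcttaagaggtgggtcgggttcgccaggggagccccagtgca
Coq10b: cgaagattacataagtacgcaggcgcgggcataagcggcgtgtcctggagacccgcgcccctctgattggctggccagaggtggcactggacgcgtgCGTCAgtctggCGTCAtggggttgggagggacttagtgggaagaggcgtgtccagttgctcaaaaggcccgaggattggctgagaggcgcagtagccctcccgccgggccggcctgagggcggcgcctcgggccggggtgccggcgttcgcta
Ptch1: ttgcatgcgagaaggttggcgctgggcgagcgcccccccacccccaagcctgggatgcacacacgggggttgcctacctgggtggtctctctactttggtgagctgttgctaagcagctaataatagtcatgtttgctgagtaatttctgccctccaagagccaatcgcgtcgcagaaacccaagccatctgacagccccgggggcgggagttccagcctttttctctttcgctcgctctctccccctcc
Crem: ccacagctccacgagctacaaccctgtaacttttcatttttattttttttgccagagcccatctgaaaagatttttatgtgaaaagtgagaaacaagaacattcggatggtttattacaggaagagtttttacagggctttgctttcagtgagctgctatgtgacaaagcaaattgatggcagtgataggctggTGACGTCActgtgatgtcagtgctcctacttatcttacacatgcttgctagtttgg
Slc15a1: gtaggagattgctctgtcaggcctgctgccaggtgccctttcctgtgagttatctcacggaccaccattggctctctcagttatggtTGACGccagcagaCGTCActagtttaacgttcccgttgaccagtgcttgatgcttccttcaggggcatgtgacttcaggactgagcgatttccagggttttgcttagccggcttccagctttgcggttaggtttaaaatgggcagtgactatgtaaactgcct
Aanat: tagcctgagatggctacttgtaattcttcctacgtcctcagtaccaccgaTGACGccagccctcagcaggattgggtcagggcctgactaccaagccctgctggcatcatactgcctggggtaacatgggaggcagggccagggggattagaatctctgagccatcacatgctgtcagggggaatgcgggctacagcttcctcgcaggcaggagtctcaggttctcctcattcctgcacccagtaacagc

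The Sik1 window holds a pair of half-sites that begin 191 and 180 bases before the start, and that of Coq10b a similar pair at 153 and 142 bases. Nr4a1 has 4 half-sites, at 246, 226, 82 and 53 bases. Dusp1 has a single half-site at 172 bases and a full CRE at 124 bases, and the Crem start shown has a full CRE at 56 bases. Slc15a1 has half-sites facing each other at 163 and 150 bases, Aanat has 1 at 200 bases, and the Ptch1 window has none. The genes shown thus hold a half-site more often than the night genes as a whole. Of those with a window, 23 of 46 genes held one, in windows that also took in 50 bases after the start. Many other night genes at least 2-fold lower at ZT1 have none in their windows and are not shown, among them Pde4b, Dclk3, B3gnt8, Tinagl1 and Bsx. Of the 27 such genes with a window, 13 held a half-site.

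Over the whole set, searched on both strands in windows from 250 bases before to 50 bases after each start, 46 of the 53 night genes had a window and 23 of these 46 held a half-site. Counted by window, 48.1% of the night genes' windows held one, against 34.7% of the windows of all 6111 genes and 21.2% of all 33469 windows in the table. Counted by gene, 1822 of the 5091 compared genes with a window held a half-site (35.8%), against 50% of the 46 night genes. The half-site was in 13 of the 27 night genes with a window that were at least 2-fold lower at ZT1 (48.1%). It was in 10 of the 19 within 2-fold (52.6%). The full CRE was in 3 of the 46 genes (6.52%), namely Dusp1, Crem and Rcan1, against 3.91% of the compared genes with a window and 1.999% of all genes in the table with a window; all 3 were at least 2-fold lower. Day genes, defined further on, held a half-site in 11 of 66 genes with a window (16.7%, against the same 35.8%). A match is a run of letters and was not tested as a site.

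Several of the fastest night transcripts encode regulators that cAMP is known to induce. Sik1 encodes salt-inducible kinase 1, which restrains CREB by acting on its coactivators (rn4 chr20:10282203-10291735). Its level was 1.80 FPKM at ZT7, 1.77 at ZT13, 1.62 at ZT15, 68.3 at ZT19, 44.1 at ZT23 and 1.90 at ZT1, so the mid-dark and late-dark pools stood far above the others. Sik1 was thus 23.2-fold lower at ZT1 than 2 h before, which averages to 1 halving per 0.441 h, and 0.279% of its night level was left. Since Sik1 was already near its day level at ZT1, when the fall ended is not known, and this average is not a measured rate. Irs2, the adaptor of the insulin and IGF1 receptors (chr16:83379987-83404220), followed with 85.7 FPKM at ZT19, 39.1 at ZT23 and 2.02 at ZT1, below its values of 2.79 at ZT7 and 2.78 at ZT13. ZT1 was the lowest of the 6 pineal libraries for 4 of the 53 night genes, Irs2, Zrsr1, Pde4b and Coq10b. The same held for 548 of the 6058 compared genes that were not night genes, so the count does not set the night genes apart.

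Zrsr1, a relative of a splicing factor subunit, went from 145 FPKM at ZT19 and 67.4 at ZT23 to 6.54 at ZT1; it belongs to a family of near-identical copies, so its value is uncertain. Dusp1, a phosphatase that switches off MAP kinases (chr10:16942913-16945696), went from 33.9 to 3.90 FPKM between ZT23 and ZT1, a difference of -2.83 on the log2(FPKM + 1) scale. Nr4a1, an orphan nuclear receptor (chr7:140012807-140020589), went from 30.2 to 4.13 FPKM, against 3.43 at ZT7 and 4.11 at ZT13. Dusp1 and Nr4a1 were thus back at about their daytime level.

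Pde4b, a phosphodiesterase that breaks down cAMP (chr5:123158156-123533877), was at 71.0 FPKM at ZT19, 56.5 at ZT23 and 8.29 at ZT1. That ZT1 value was under both daytime values, 12.3 at ZT7 and 11.7 at ZT13. Dclk3, a kinase of the doublecortin-like family, went from 54.8 FPKM at ZT23 to 9.09 at ZT1, with 11.5% of its night level left. Coq10b, a mitochondrial coenzyme Q-binding protein, went from 44.9 to 9.07 FPKM, Spata2L from 17.9 to 2.87 and Irak2, an interleukin-1 receptor-associated kinase, from 63.1 to 12.9.

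Ptch1 had the highest ZT23 level of the 11 night genes with at least a 4-fold fall. It encodes the hedgehog receptor, which is itself a target of the hedgehog pathway (chr17:7088234-7142457). Its level was 9.79 FPKM at ZT7, 10.3 at ZT13, 11.9 at ZT15, 192 at ZT19, 147 at ZT23 and 16.2 at ZT1. Ptch1 was 9.08-fold lower at ZT1 than at ZT23, with 4.49% of its night level left. Hhip, another hedgehog-binding protein of the membrane (chr19:29752595-29840439), took a different course: 1.88 FPKM at ZT7, 1.05 at ZT13, 1.45 at ZT15, 28.3 at ZT19, 56.4 at ZT23 and 35.4 at ZT1. Hhip was higher at ZT23 than at ZT19, where Ptch1 was lower, and 61.8% of its night level was left 1 h into the light.

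**Figure D3:**
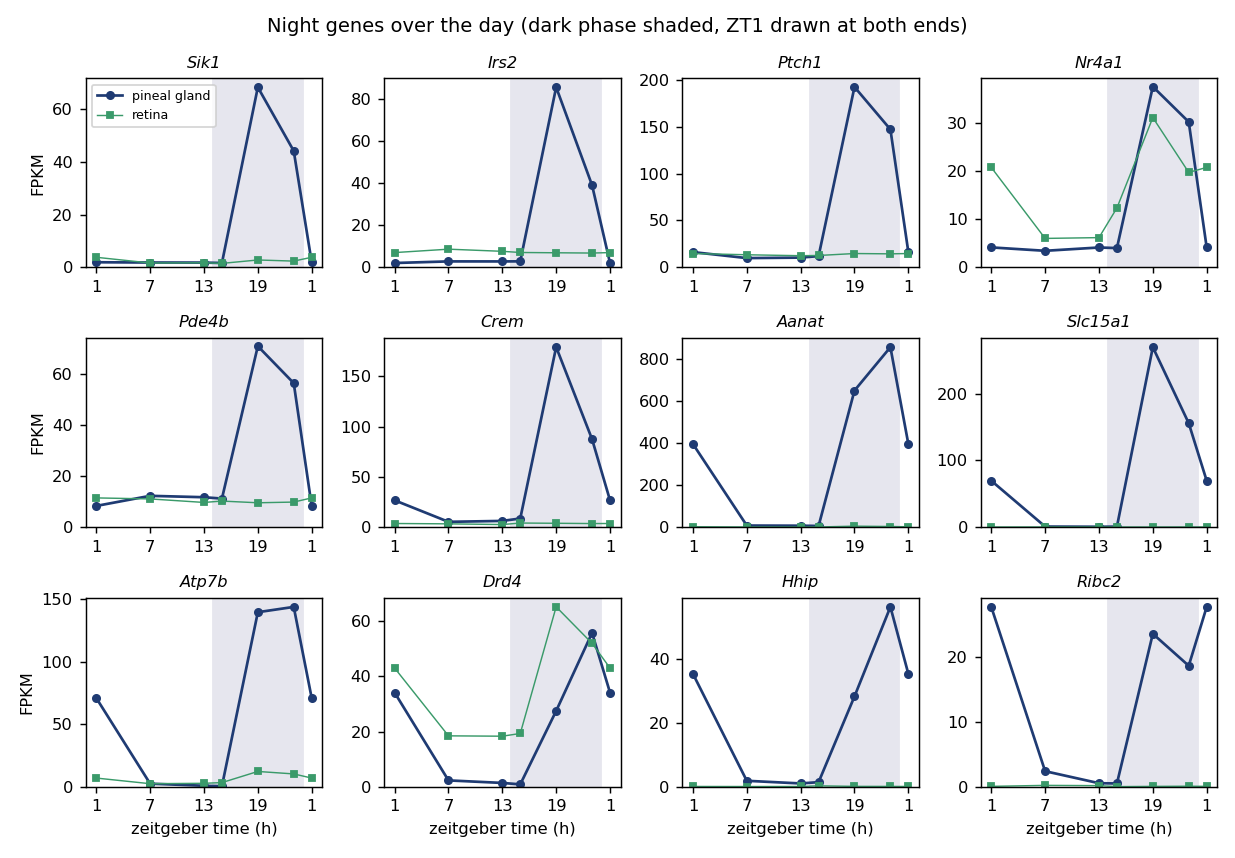
FPKM over zeitgeber time for 12 night genes in the pineal gland (blue) and the retina (green), 1 library a point, with the dark phase shaded and ZT1 drawn at both ends; each panel starts at 0 and has its own scale. Sik1, Irs2, Ptch1, Nr4a1 and Pde4b are back near their day level at ZT1, whereas Aanat is at 396, Drd4 at 34.1 and Hhip at 35.4 FPKM.

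Crem lay between the fast and the slow genes. The gene encodes CREM and, from an internal start, ICER, a repressor that cAMP induces and that ends its own induction. Summed Crem was 5.18 FPKM at ZT7, 6.08 at ZT13, 8.49 at ZT15, 179 at ZT19, 87.5 at ZT23 and 26.6 at ZT1, with 25.6% left. The table holds a pair of Crem transcripts: the one spanning chr17:62770633-62837670 went from 89.8 FPKM at ZT19 to 26.3 at ZT23 and 9.88 at ZT1, and the shorter one, at chr17:62822636-62836430, from 89.4 to 61.1 and 16.7. The shorter transcript kept more of its ZT19 level until ZT23 and then had the larger difference across lights on, -1.81 against -1.33 on the log2(FPKM + 1) scale. The spans overlap, so how fragments were shared between them is uncertain.

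Bsx, a homeobox transcription factor, had a moderate fold change but was back at its day level. It went from 110 FPKM at ZT23 to 33.7 at ZT1, which equals its mean at ZT7 and ZT13 of 33.7, so 0.0517% of the night level was left. Gem, a small GTPase that inhibits calcium channels, likewise had 6.04% left at a difference of -1.25. Mat2a, which makes S-adenosylmethionine, the methyl donor used in the last step of melatonin synthesis, went from 45.3 to 16.6 FPKM, with 14.0% left. B3gnt8, a glycosyltransferase that completes the 12 largest falls among the night genes, went from 13.6 to 3.46 FPKM.

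Aanat itself kept much of its night level. It encodes arylalkylamine N-acetyltransferase (chr10:106709371-106713683), and its transcript was at 7.05 FPKM at ZT7, 6.35 at ZT13, 5.13 at ZT15, 650 at ZT19, 857 at ZT23 and 396 at ZT1. Aanat was highest 1 h before lights on, when Sik1, Irs2, Dusp1 and Crem were already lower than at ZT19. It was 2.17-fold lower at ZT1 than at ZT23, or 1 halving per 1.79 h on average, and 45.7% of its night level was left.

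Other abundant night transcripts of known pineal interest were close to Aanat. Slc15a1, an oligopeptide transporter, went from 270 FPKM at ZT19 to 156 at ZT23 and 69.5 at ZT1, against 0.708 at ZT7 and 0.411 at ZT13, with 44.4% left. Nearly all of this came from its short transcript of 2441 bases of genome (chr15:106550096-106552536), at 155 FPKM at ZT23 and 69.3 at ZT1, while the full-length transcript was at 0.437 and 0.273. Atp7b, a copper-transporting ATPase whose short pineal form is known as PINA, was at 139 FPKM at ZT19, 144 at ZT23 and 70.9 at ZT1, with 48.8% left. Aanat, Slc15a1 and Atp7b thus all held between 44 and 49% of their night level at ZT1. The 11 night genes with at least a 4-fold fall held 14.6% or less. They were picked by that fall, so a low share follows from the choice. Shares as low were also seen with smaller falls, as in Bsx (0.0517%), Gem (6.04%) and Rgs2 (14.4%).

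The slowest night genes were still closer to their night than to their day level. Drd4, the D4 dopamine receptor, went from 27.5 FPKM at ZT19 to 55.8 at ZT23 and 34.1 at ZT1, with 59.9% left. St8sia2, which adds polysialic acid to proteins, was at 8.31 FPKM at ZT19, 18.2 at ZT23 and 11.5 at ZT1. A pair of phosphodiesterases behaved unlike Pde4b: Pde10a went from 37.0 to 23.7 FPKM and Pde8b from 42.6 to 30.3, with 59.7 and 68.3% of the night level left. Slc17a6, a vesicular glutamate transporter (81.9 and 57.1 FPKM), Abca1, a cholesterol exporter (38.8 and 27.2), Dclk1 (60.3 and 39.1) and Cd24, a surface glycoprotein (154 and 118), kept between 58 and 74%.

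Some of the genes with a small change across lights on had already come down in the dark. Emd, which encodes the nuclear envelope protein emerin, went from 66.0 FPKM at ZT19 to 29.5 at ZT23 and 19.1 at ZT1, and Mbnl2, a splicing regulator, from 171 to 83.4 and 58.3. In all, 9 of the 53 night genes were at least 2-fold lower at ZT23 than at ZT19, among them Irs2, Zrsr1, Dusp1, Coq10b, Crem and Rgs2. Of all genes compared in that step, 0.905% were. Night genes were picked by a high ZT19, which favours a lower ZT23. Another 17 were higher at ZT23 than at ZT19: 1 of the 11 with a 4-fold fall at lights on (Irak2), 7 of the 33 with a 2-fold fall and 10 of the 20 within 2-fold. The share of all genes higher at ZT23 was not counted, and the ZT23 pool enters both steps. No link between both steps is read from these counts.

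Ribc2 was the exception in direction, with 23.5 FPKM at ZT19, 18.6 at ZT23 and 27.7 at ZT1, its highest value of the day, before 2.40 at ZT7. A further 8 genes met the night rule but were under 5 FPKM in both compared pools and so are outside the 53. Dio2, which activates thyroid hormone, was the extreme: 25.4 FPKM at ZT19, under 2 at ZT23 and 0.499 at ZT1. Nr4a3, a relative of Nr4a1, was at 7.18, 0.987 and 0.137 FPKM, Cyp2s1 at 8.98, 0.521 and 0.307, and Hcrtr1, an orexin receptor, at 5.22, 4.68 and 2.54. Dio2, Nr4a3 and Cyp2s1 had lost most of their ZT19 level before lights on.

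In the retina 32 of the 53 night genes reached 5 FPKM at ZT23 or ZT1. None of them was 2-fold lower or higher, where 0.064% and 0.0799% of all retinal genes were, and their median difference was 0.03, against 0.07 over all retinal genes. At so low a background few calls could be looked for among 32 genes, so the count says nothing particular to them. Nr4a1 was at 19.7 FPKM in the retina at ZT23 and 20.8 at ZT1, Ptch1 at 14.3 and 14.7, Irs2 at 6.77 and 6.99 and Pde4b at 9.80 and 11.4. Dusp1 had the lowest retinal difference of the 32, from 21.3 to 10.3 FPKM (-0.98). Aanat was low in the retina in both pools, at 2.47 and 1.23 FPKM, but was also higher there at night (4.17 at ZT19, 0.147 at ZT7). Irak2 and Atp7b likewise had a retinal night rise and a lower value at ZT1. Irak2 went from 5.63 to 3.46 FPKM, against 1.02 at ZT7, and Atp7b from 10.3 to 6.97, against 2.47 at ZT7. Cd24 went the other way, from 12.4 to 20.6 FPKM, the highest retinal difference of the 32 (0.69). A fall across lights on was thus not seen in the pineal gland alone for every night gene.

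Of the 72 genes at least 2-fold lower at ZT1, 39 were not night genes. Of these 39, 25 had a smaller night rise (ZT19 at least 2-fold above ZT7 and ZT13) and 14 did not. Pde4d, a second cAMP phosphodiesterase of the Pde4 family, went from 5.67 to 1.295 FPKM. The clock genes Per1 and Cry2, both repressors in the circadian loop, went from 10.4 to 4.23 and from 25.1 to 11.2 FPKM. Errfi1, a feedback inhibitor of the EGF receptor, went from 9.78 to 3.26, and Tob1, an antiproliferative protein, from 39.1 to 15.0.

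Defb24, a beta-defensin, stood out among the 14 with no night rise. Its level was 14.2 FPKM at ZT7, 21.5 at ZT13, 14.3 at ZT15, 17.2 at ZT19, 58.1 at ZT23 and 15.6 at ZT1, so ZT23 alone was high. ZT23 was the highest of the 6 libraries for 23 of the 72 genes, and ZT1 the lowest for 24. ZT1 was the lowest for 548 of the 6058 compared genes that were not night genes. The 72 were picked by a ZT1 below ZT23, which favours both counts, so the counts are no result about these genes. With 1 pool each, a high ZT23 pool and a low ZT1 pool cannot be told apart. A transcript without a gene symbol (chr5:146450567-146450916, 350 bases) was at 369 FPKM at ZT23 and listed at 0 in every other pineal library, and the microRNA precursor Mir344a-2 was at 6.27 FPKM at ZT23 and listed at 0 at ZT1. The transcript without a symbol also had 208 FPKM in the retina at ZT23 and 52.6 at ZT15 and is listed at 0 in the other retinal libraries. Its values may come from a failed estimate of FPKM, which was not tested; it is the one gene at least 2-fold lower in both tissues.

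By role, the change was uneven within the noradrenaline and cAMP pathway. Neither main receptor passed 2-fold: Adra1b, an alpha-1 receptor, was at 65.1 FPKM at ZT23 and 40.9 at ZT1 (-0.66), and Adrb1, the beta-1 receptor, at 50.1 and 38.9 (-0.36). Of the 21 genes compared on the list of adrenergic and cAMP signalling, 2 were at least 2-fold lower (Pde4b and Pde4d) and 1 was higher. Of all genes compared, 1.18% were lower and 0.671% higher. The higher one was Adcy1, an adenylyl cyclase, which went from 1.298 to 10.1 FPKM. The kinase subunits Prkaca (51.6 and 39.1 FPKM) and Prkar1a (37.8 and 29.2) were within 2-fold. The list's median was -0.32, against 0.05 over all genes. On this and the other lists, the floor lets in genes through the pool where they are high. Pde4d, Per1 and Errfi1 reached 5 FPKM at ZT23 alone, and Adcy1 at ZT1 alone.

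Of the 12 genes compared on the list of cAMP-induced regulators, 11 were at least 2-fold lower (1.18% of all genes compared were) and none higher, with a median of -2.07. The exception was Junb, at 10.1 and 4.83 FPKM (-0.92). Among them Rgs2, which limits G protein signalling, went from 12.4 to 5.32 FPKM. The list was drawn up with earlier results of these data known, so its direction is no independent evidence. The floor also favours falls on it: Sik1 (44.1 and 1.90 FPKM) and Junb reached 5 FPKM at ZT23 and not at ZT1. Among the immediate early genes, the same holds for Dusp1, Nr4a1 and Gadd45b (7.78 and 2.39). The immediate early genes, which overlap with the list of cAMP-induced regulators, were mixed. Of 15, 3 were lower (Dusp1, Nr4a1 and Gadd45b), none was 2-fold higher, and the median was -0.48. Fos was at 13.1 FPKM at ZT23 and 17.2 at ZT1, and Jun at 11.5 and 20.6, the opposite direction to Junb.

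**Figure D4:**
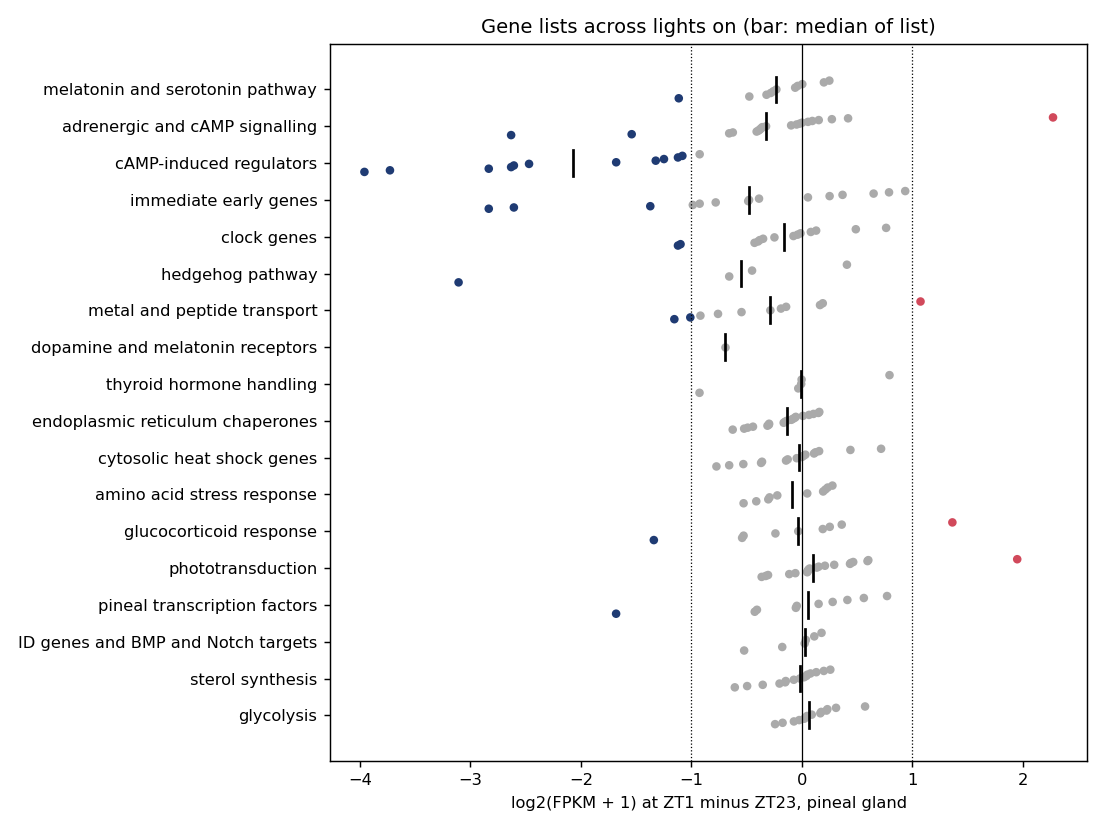
Difference of log2(FPKM + 1), ZT1 minus ZT23, in the pineal gland for the genes of at least 5 FPKM on each list, 1 point a gene and a bar at each list's median, with dotted lines at 2-fold. The list of cAMP-induced regulators has its median at -2.07, and the medians of the other lists drawn, where they hold at least 5 genes, lie between -0.48 and 0.10.

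The rest of the melatonin pathway changed less than Aanat. Of 11 genes, Aanat alone was 2-fold lower (1.18% of all genes compared were) and the median was -0.23. Tph1, the first enzyme of serotonin synthesis in the gland, was at 3213 FPKM at ZT23 and 3692 at ZT1, and Asmt, which carries out the last step, at 444 and 378. Ddc (182 and 152 FPKM), Gch1 (66.3 and 79.0) and the amino acid transporter Slc7a5 (53.7 and 38.4) were also within 2-fold. These genes thus differed less than Aanat between both pools.

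Among 14 clock genes, Per1 and Cry2 were lower and none was 2-fold higher (median -0.16), where 1.18% and 0.671% of all genes compared were. Arntl, the positive partner in the clock, was at 8.59 and 12.5 FPKM, its highest value of the 6 at ZT1. Nr1d1, which represses it, was at 12.2 and 13.4, and Dbp, an output gene, at 17.5 and 12.8, its lowest value. Per2 was under 5 FPKM in both pools (3.80 and 2.09).

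Other lists had few genes past 2-fold. None of the 19 endoplasmic reticulum chaperones, 16 cytosolic heat shock genes, 10 genes of the amino acid stress response, 15 of sterol synthesis and 14 of glycolysis passed 2-fold, where 1.18% of all genes were lower and 0.671% higher, so these counts do not set the lists apart. Hspa5, the main chaperone of the endoplasmic reticulum, was at 305 FPKM at ZT23 and 212 at ZT1, and stood between 70.1 and 98.6 at ZT7, ZT13 and ZT15. Of 10 pineal transcription factors Bsx alone was lower; Crx, the photoreceptor and pineal regulator, was at 275 and 205 FPKM and Otx2 at 110 and 122. Of 9 glucocorticoid response genes, Errfi1 was lower and Sgk1, a kinase, higher (14.1 and 37.8 FPKM). Of 11 genes of metal and peptide transport, Slc15a1 and Atp7b were lower (Atp7b only just, at -1.01, and at -0.997 with quantile normalization) and the zinc transporter Slc39a8 higher (6.29 and 14.4).

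The converse group, day genes, had log2(FPKM + 1) at both ZT7 and ZT13 at least 1 (2-fold) above ZT19, and numbered 82. At ZT1, 31 of them (37.8%, against 0.671% of all genes compared) were at least 2-fold above ZT23 and none was 2-fold below, with a median difference of 0.79. The floor favours rises here: 23 of the 82 reached 5 FPKM at ZT1 and not at ZT23, 11 of them at least 2-fold higher. With the floor set at ZT7 and ZT13 instead, chosen after the data were seen, 27 of 90 day genes (30%, against 0.62% of the 5806 genes at that floor) were at least 2-fold higher. The share of the way from ZT23 to the day level that was covered at ZT1, taken for the 46 whose ZT23 value was far enough below it, had a median of 56.6%, with over 80% in 10 genes and under 30% in 4. In the retina 60 of the 82 reached 5 FPKM, none was 2-fold higher (0.0799% of all retinal genes were), and the median was 0.07, as over all retinal genes. The day genes include Igf2 and Kcne2, which are on the marker lists of meninges and choroid plexus, and Alas2 of the blood list. They also include Cnp of the oligodendrocyte list and Isl2 of the pinealocyte list. Over all pineal libraries the summed choroid plexus list ranged from 824 to 3870 FPKM and the meninges list from 237 to 468. The pinealocyte list ranged from 5659 to 6823. Igf2 was at 78.5 FPKM at ZT7, 102 at ZT13 and 31.7 at ZT19, yet differed by -0.01 across lights on. Igfbp2, also a day gene, differed by -0.08. Whether the pools that define day and night genes differ in adjoining tissue, and the part of such cells in the group, was not tested.

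**Figure D5:**
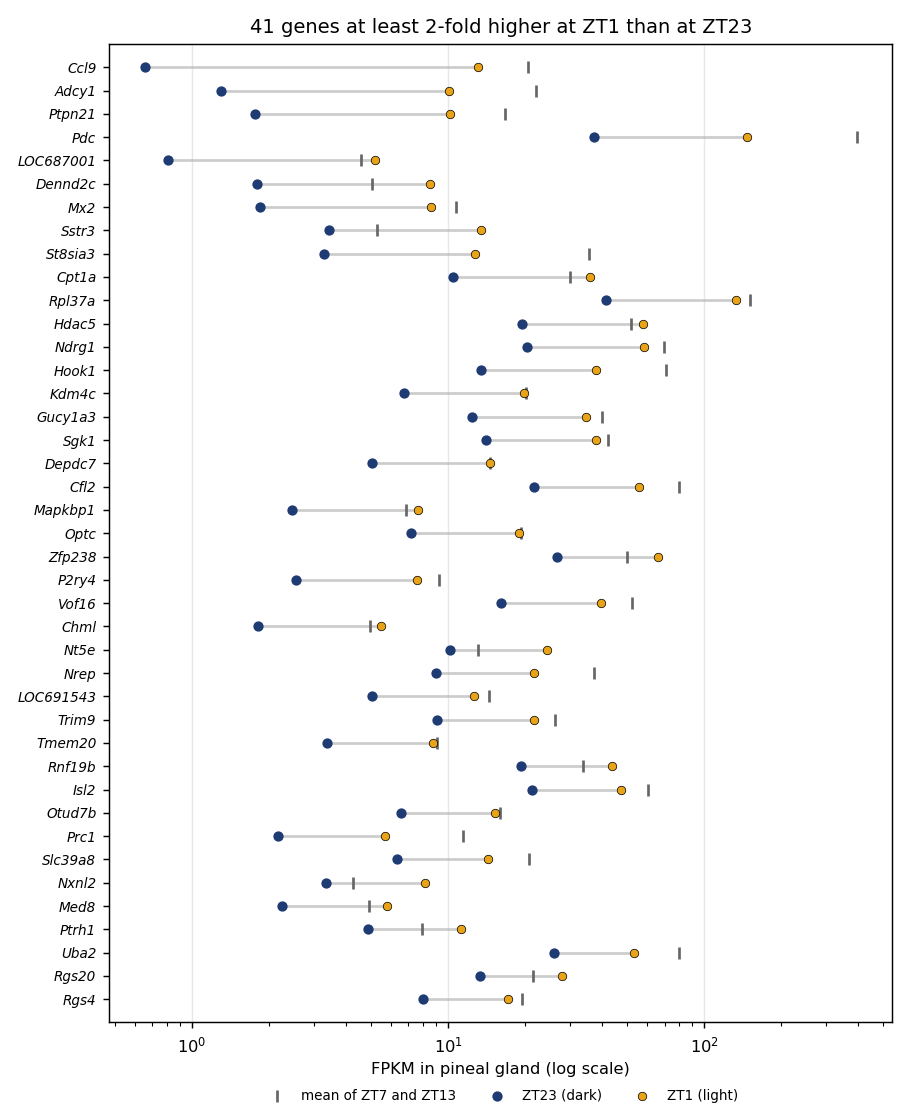
Pineal FPKM (log axis) of the 41 genes at least 2-fold higher at ZT1 than at ZT23, at both times and as the mean of ZT7 and ZT13, 1 row a gene and 1 library a point, ordered by the rise. Ccl9, at the top of the order, is at 0.654 FPKM at ZT23 and 13.1 at ZT1; for Cpt1a and Hdac5 the ZT1 point lies past the day mark.

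Ccl9, a chemokine (chr10:71645931-71650814), had the largest rise, and Adcy1 the second. Ccl9 was at 25.0 FPKM at ZT7, 16.1 at ZT13, 14.0 at ZT15, 2.40 at ZT19, 0.654 at ZT23 and 13.1 at ZT1. Adcy1, named above, was at 24.6, 19.6, 19.9, 5.32, 1.298 and 10.1 at these times (chr14:87812256-87923402). Both were lowest at ZT23 and had recovered 62.7 and 42.5% of the way to the day level. Ptpn21, a cytosolic tyrosine phosphatase and the third gene with a 4-fold rise, went from 1.77 to 10.2 FPKM.

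Pdc had the highest level at ZT1 of the 12 largest rises. It encodes phosducin, which binds G protein beta-gamma subunits in photoreceptors and pinealocytes. Of 20 genes on the phototransduction list, Pdc alone passed 2-fold, where 1.18% of all genes compared were lower and 0.671% higher. Its level was 378 FPKM at ZT7, 411 at ZT13, 393 at ZT15, 112 at ZT19, 37.2 at ZT23 and 147 at ZT1, so 30.7% of the way to the day level was covered. In the retina Pdc was at 964 FPKM at ZT23 and 968 at ZT1.

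Some day genes passed their day mean. Dennd2c went from 1.79 FPKM to 8.54, 207% of the way and its highest value of the 6, against 6.85 at ZT7 and 3.25 at ZT13. Cpt1a, which admits fatty acids to mitochondria, went from 10.4 to 35.7 FPKM, 130% of the way to its day mean but under its 37.5 at ZT7. Hdac5, a class II histone deacetylase, went from 19.4 to 57.8, 119% of the way but under its 60.8 at ZT7, and Sgk1 covered 85.1%. Sstr3, a somatostatin receptor (3.42 and 13.5 FPKM), St8sia3, a sialyltransferase (3.28 and 12.8), LOC687001 (0.808 and 5.18) and Mx2, an interferon-induced GTPase (1.85 and 8.59), were the other large rises. Isl2, a homeobox factor of pinealocytes, was at 21.3 and 47.5 FPKM, against 60.0 at ZT7.

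Of the 41 higher genes, 31 were day genes and 10 were not. ZT1 was the highest of the 6 libraries for 10 of the 41 and ZT23 the lowest for 21. ZT1 was the highest for 926 of the 6058 compared genes that were not night genes. The 41 were picked by a ZT1 above ZT23, which favours both counts. Rpl37a, a ribosomal protein, was at 41.3 FPKM at ZT23 and between 133 and 170 in the other pineal libraries; it has many near-identical copies, and in the retina it ranged from 60.1 to 228 FPKM, so its value is uncertain. Med8, a subunit of the Mediator complex, was the one gene at least 2-fold higher in both tissues, at 2.25 and 5.80 FPKM in the pineal gland and 2.06 and 5.77 in the retina.

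The thresholds cut through a continuous range. Just inside the lower 2-fold line were Galntl1 (-1.01), Hyal1 (-1.01) and Ankrd52 (-1.001), and just outside it Usmg5 (-0.99), Btg2 (-0.99) and Gtrgeo22 (-0.98). Just inside the higher line were Rgs4 (1.01) and Rgs20 (1.01), and just outside it Xkr7 (0.99). The weakest night gene, Kctd3, was 2.04 above its higher day value on the log2 scale at ZT19, and Rlim, just outside the rule, 1.92. At the floor, Pcolce was kept with 5.004 FPKM at ZT23 and Znf830 was left out with 4.99 FPKM at ZT1.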

How the data were processed

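Per the labels' protocols, polyadenylated RNA of each pool was sequenced as 101-base paired ends after 16 cycles of PCR, with 6 barcoded libraries a lane. Cufflinks 1.2.0, TopHat 1.3.1 and the build rn4 are listed, per the submitters' processing notes, without their roles; whether reads kept strand is not given in the sources used here. The authors deposited FPKM per RefSeq transcript for 14 libraries, without read counts. The 16932 transcripts were summed by gene ID to 16472 genes, 342 of them with several transcripts, and 24 symbols turned into dates were renamed from the RefSeq table of GRCr8. Depth was estimated from the 10th percentile of olfactory receptor FPKM above 0 and is rough. Coordinates of genes are those of the table in rn4, with 1 added to each start.

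Differences were taken on log2(FPKM + 1), with genes kept at 5 FPKM in either pool and counted past 2-fold (Python 3.11.15, pandas 2.3.3, numpy 2.4.6). With 1 pool a time no p-value is given. Halving times are 2 h divided by the log2 of the FPKM ratio. They average over the darkness and light between both pools and are not measured rates of decay. RefSeq windows of GRCr8 were matched by gene ID. Named genes were the 12 largest falls and 12 largest rises, the 12 night genes with the largest and the 12 with the smallest fall, list members past 2-fold, and Tph1, Asmt, Aanat, Per1, Per2, Arntl, Nr1d1 and Dbp; 1 gene that this rule names is not reported here; others named (among them Mat2a, Drd4, Hcrtr1, Dio2, Adra1b and Hspa5) were chosen after their values were seen. The genes, lists and rules were chosen with earlier results of these data known. Alternatives were other pseudocounts, floors, thresholds and night rules, median ratio scaling, quantile normalization, floors set in pools other than the compared ones (chosen after seeing the data) and the highest transcript of a gene in place of the sum.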

Additional observations from a re-analysis of the deposited data

Results flagged for a closer look

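Emd, the emerin gene, was the 1 named or night gene, of those at 5 FPKM or more in both tissues, whose pineal and retinal levels differed by at least 0.5 (log2) in opposite directions. It went from 6.13 FPKM at ZT23 to 9.38 at ZT1 in the retina, a difference of 0.54 on the log2(FPKM + 1) scale, and from 29.5 to 19.1 FPKM in the pineal gland, a difference of -0.60. With 1 pool for each tissue and time, the difference between the tissues was not tested.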

How the results depend on the processing

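No paired analysis was possible because each time has 1 pool, and no pool could be left out. Of 300 alternative values of the 60 named genes, 252 stayed within 0.22 (log2) of the reported one. The other 48 moved (18 with a pseudocount of 0.1 FPKM and 30 with 5 FPKM). A change of sign was looked for only in the 42 named genes past 2-fold, and none changed sign. Of the 42 past 2-fold, 12 fell under it with a pseudocount of 5 FPKM and 1 (Atp7b, -0.997 with quantile normalization) in another alternative; weakly expressed genes limit the folds. Scaling shifted the median of all genes by -0.06 (median ratio) and -0.03 (quantile). Under these 2 scalings 84 and 73 genes were lower, 38 and 37 higher, 41 of 60 and 35 of 57 night genes lower, and 22 of 46 and 22 of 57 day genes higher, against 31 of 82.

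With a pseudocount of 5 FPKM the counts were 31 lower, 17 higher, 35 night genes with 19 lower, and 12 day genes higher; with 0.1 FPKM, 12 retinal genes were higher. A floor of 1 FPKM kept 9264 genes, and 20 retinal genes were then higher; a floor of 20 FPKM kept 2138 genes, with 37 lower, 18 higher, 14 day genes higher and 3 retinal genes higher. At 1.5-fold there were 211 lower, 172 higher, 56 day genes higher, and 22 lower and 63 higher in the retina. At 4-fold there were 13 lower, 3 higher, 11 night genes lower, 3 day genes higher, 6 of the cAMP-induced regulators lower, and 1 lower and 1 higher in the retina. A night rule of 2-fold gave 178 night genes with 58 lower, and one of 8-fold gave 18 with 13 lower and a median of 20.1% of the night level left. These counts differ by construction of each setting. Day genes numbered 128 with a pseudocount of 0.1 FPKM, 33 with 5 FPKM, 34 at a floor of 20 FPKM and 109 at 1 FPKM. The other counts of genes past 2-fold, of night genes and of genes kept stayed within 1.5 times the reported ones.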
